A study of Homo sapiens with 6 samples.

Results

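Matrix metalloproteinases (MMPs) are zinc-dependent proteases that cut collagens, laminins and other proteins around the cell, and tissue inhibitors of metalloproteinases (TIMPs) are small secreted proteins that block their active site. A set of 9 genes of this system, MMP1, MMP3, MMP7, MMP9, MMP13, MMP14, TIMP1, TIMP2 and TIMP3, were picked by symbol, with earlier results of these data known. All 9 had a row in the authors' deposited gene table of 20115 rows, and 0 had a row in the table of 2014 readthrough regions. The RNA came from MDA-MB-231, an invasive triple-negative breast cancer line, in 2 groups: 3 UBE3D KD libraries, from cells with lentivirus-borne, doxycycline-inducible hairpins against UBE3D, and 3 control libraries, whose hairpin and doxycycline status the labels do not give. UBE3D is an atypical ubiquitin ligase. The title of the series names CPSF73, the endonuclease that cuts pre-mRNA ends, and asks about migration and invasion, processes in which these proteases are known to take part.

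MMPs are made as latent proenzymes whose prodomain blocks the zinc site until other proteases cut it. The collagenases MMP1 and MMP13 cut fibrillar collagen, the stromelysin MMP3 cuts many matrix proteins and also activates other MMPs, and the gelatinase MMP9 cuts denatured collagen and basement membrane collagen. MMP14 is anchored in the plasma membrane, where it cuts collagen at the cell surface and, with TIMP2 as a bridge, activates MMP2. TIMP3 differs from the other TIMPs in that it stays bound to the matrix and also blocks several ADAM and ADAMTS proteases.

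The files give no value per library, so each gene is described by its mean normalized count over all libraries, its log2 fold change (UBE3D KD over control), its standard error (SE) on the log2 scale and its adjusted p, all from the authors' DESeq2 step. Whether the groups overlapped for any gene cannot be read from them, and depth per library is unknown. A gene is called lowered or raised at an adjusted p under 0.05. The fold changes are shrunken toward 0. Each sample carries the label "pooled", with no word on separate cultures; the spread behind the p-values is that between libraries and could be technical. UBE3D itself had a log2 fold change of -0.80 (SE 0.37, DESeq2 adjusted p = 0.00632) at a mean of 36.7 in the authors' deposited table, and a Wald test on the deposited change and SE lost that call (adjusted p = 0.295). That Wald test uses the shrunken changes and is therefore stricter than the authors' own p-values. The size of a change over its SE was in median 0.64 of the normal quantile that matches the deposited p. A call lost in the Wald test, here or below, is not thereby shown to be false. The line's own markers were abundant. The authors' deposited means of AXL, CD44, VIM, KRT18, MET and EGFR ranged from 2490 to 11376 normalized counts, while those of the oestrogen and progesterone receptor genes ESR1 and PGR were 22.2 and 50.2 and that of ERBB2 was 758.

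Of the 9 members, 5 fell and 0 rose in UBE3D KD cells. Of all rows in the authors' deposited table, by comparison, 7.93% were lowered and 4.62% were raised. The members' median log2 fold change was -0.51, against -0.03 over all rows. The 5 that fell were the proteases MMP3, MMP1 and MMP14 and the inhibitors TIMP3 and TIMP1, so the falls lay on both sides of the protease and inhibitor balance. TIMP2, MMP7, MMP13 and MMP9 did not pass the threshold.

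**Figure D1:**
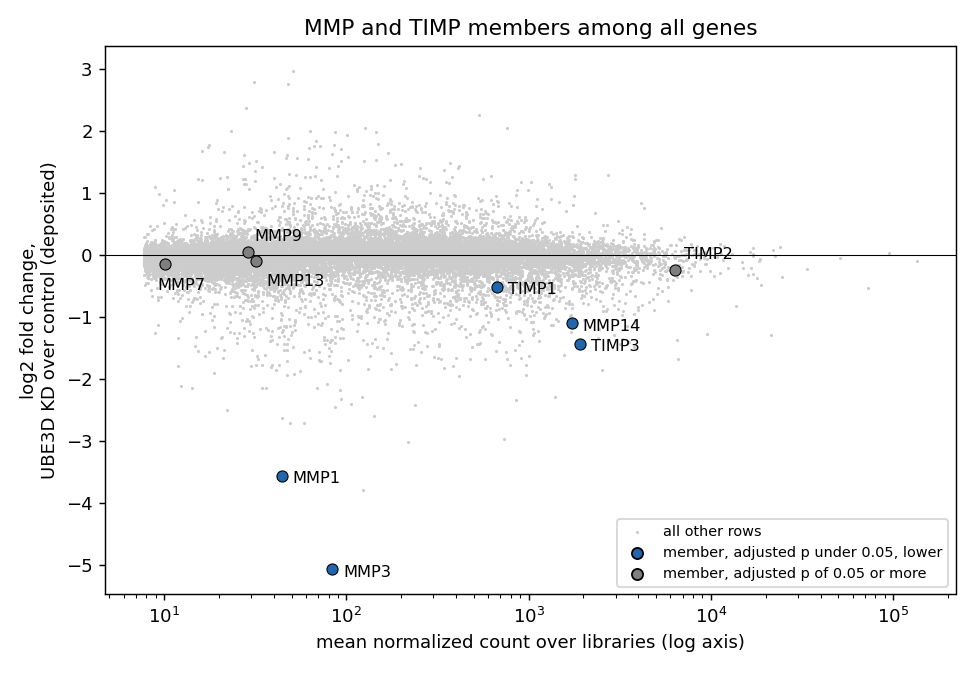
Each point is 1 gene of the authors' deposited table, with its mean normalized count on a log x axis and its log2 fold change (UBE3D KD over control) on the y axis; the 9 members are named. MMP3, at -5.06, is the lowest point of all 20115, and MMP1, at -3.56, lies among the few lowest, while MMP7, MMP9 and MMP13 lie near 0.

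MMP3 had the lowest log2 fold change of all rows, -5.06 (SE 0.45, DESeq2 adjusted p = 4.9e-29), or 33.4-fold lower, in the authors' deposited table. Its mean over all libraries was 83.6 normalized counts. With equal group sizes, the deposited mean and fold change together imply about 4.86 normalized counts in UBE3D KD libraries and 162 in control libraries. These implied group means are arithmetic from 2 deposited values, and no error on them could be had. Because they use fold changes shrunken toward 0, they can lie closer together than group means before shrinkage. This holds for all implied levels below. MMP1, the interstitial collagenase, had rank 3 from the lowest at -3.56 (SE 0.70, DESeq2 adjusted p = 7.13e-10), or 11.8-fold lower, in the authors' deposited table. Its mean was 44.1, which implies about 6.89 normalized counts in UBE3D KD libraries and 81.4 in control libraries. The implied knockdown means of both genes lie below 7.74, the lowest mean of any row. The interval of the log2 fold change (95%, from the SE) ran from -5.95 to -4.17 for MMP3 and from -4.94 to -2.18 for MMP1.

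MMP14, the membrane-anchored collagenase, was the abundant protease of the group, with a mean of 1721 normalized counts. It fell by 1.10 on the log2 scale (SE 0.17, DESeq2 adjusted p = 4.61e-11), or 2.15-fold, per the authors' deposited table, for implied means of 1095 in UBE3D KD libraries and 2348 in control libraries. MMP2, the gelatinase that MMP14 and TIMP2 activate, was scarce, with a mean of 24.0 and a log2 fold change of -0.10 (SE 0.33, DESeq2 adjusted p = 0.615) in the authors' deposited table.

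The remaining 3 protease members were at low levels and did not pass the threshold. MMP9 had a mean of 28.7 and a log2 fold change of 0.05 (SE 0.30, DESeq2 adjusted p = 0.814), per the authors' deposited table; its interval ran from -0.54 to 0.64. MMP13 had a mean of 31.8 and a log2 fold change of -0.10 (SE 0.25, DESeq2 adjusted p = 0.645), with an interval from -0.60 to 0.40, per the authors' deposited table. The matrilysin gene MMP7 had a mean of 10.1 and a log2 fold change of -0.15 (SE 0.45, DESeq2 adjusted p = 0.31), per the authors' deposited table; its interval ran from -1.02 to 0.72. Changes as large as those of MMP1 and MMP3 lie outside all 3 intervals, and a 2-fold change on this shrunken scale lies outside those of MMP9 and MMP13. Because the intervals are centred on changes shrunken toward 0, they do not exclude larger changes before shrinkage. Of 7232 rows with a mean from 10 to 50, 4.81% were called in either direction.

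Among the inhibitors, TIMP3 changed most. Its log2 fold change was -1.43 (SE 0.13, DESeq2 adjusted p = 4.4e-27), or 2.70-fold lower, at a mean of 1925 in the authors' deposited table, which implies about 1041 normalized counts in UBE3D KD libraries and 2810 in control libraries. TIMP1, a soluble inhibitor that also binds latent MMP9, fell by 0.51 on the log2 scale (SE 0.11, DESeq2 adjusted p = 2.57e-06), or 1.43-fold, at a mean of 670 in the authors' deposited table. The implied means of TIMP1 were 551 in UBE3D KD libraries and 788 in control libraries. TIMP2, the inhibitor of highest abundance at a mean of 6349, had a log2 fold change of -0.24 (SE 0.12, DESeq2 adjusted p = 0.0747, interval -0.48 to -0.01) in the authors' deposited table. TIMP2 passed when only rows with a mean of at least 100 were adjusted together (adjusted p = 0.0487). Of 4223 rows with a mean of 500 or more, the abundance range of these TIMPs and MMP14, 16.6% were lowered.

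Levels were compared between genes per kilobase of exon, using exon lengths from GENCODE 29. On this scale TIMP2 stood highest at a mean of 1558 normalized counts per kb, followed by MMP14 at 461, TIMP1 at 459 and TIMP3 at 418. MMP3 (41.4 per kb) and MMP1 (22.4 per kb) came next, and MMP9 (12.3), MMP13 (11.2) and MMP7 (8.98) were lowest. MMP9, MMP13 and MMP7 were near the blood and endothelial markers CD14 (8.29 per kb), VWF (7.80), PECAM1 (7.48) and PTPRC (5.89), genes of cell types that are not part of this line. The implied level of MMP3 was 2.41 per kb in UBE3D KD libraries and 80.5 in control libraries, and that of MMP1 was 3.50 per kb in UBE3D KD libraries and 41.3 in control libraries. By these implied levels MMP3 and MMP1 were below MMP9, MMP13 and MMP7 in UBE3D KD libraries and above them in control libraries. The mean levels of MMP14, TIMP1 and TIMP3 lay close together, and no error on a level could be had to separate them. Summed over the 6 protease members, the implied level was 331 per kb in UBE3D KD libraries and 784 in control libraries, most of it MMP14. Summed over the 3 TIMPs it was 2030 per kb in UBE3D KD libraries and 2840 in control libraries.

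**Figure D2:**
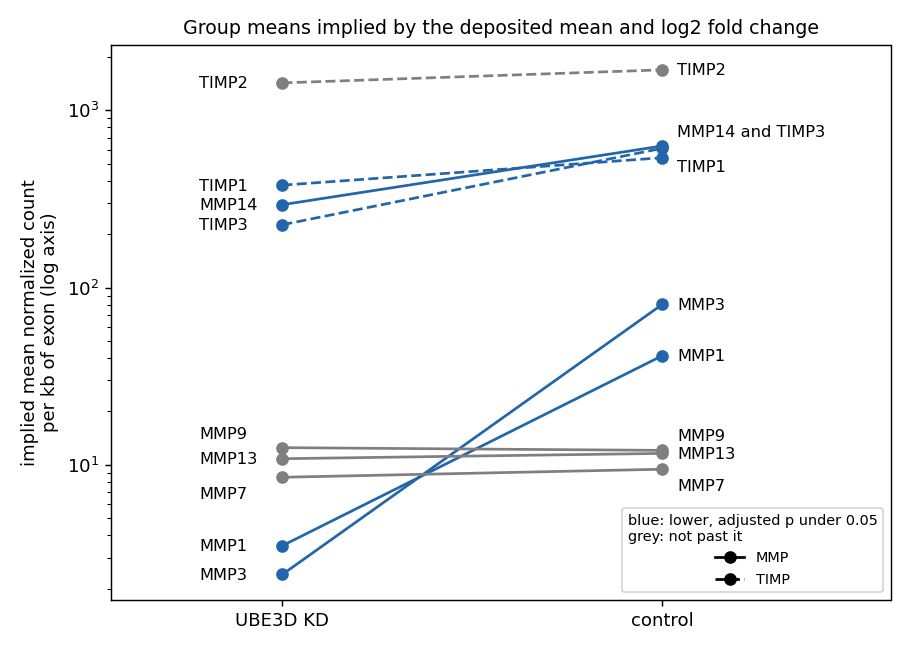
The log y axis gives the implied mean normalized count per kb of exon of each member in UBE3D KD (left) and control (right) libraries, joined by a line that is solid for MMPs and dashed for TIMPs. MMP3 and MMP1 lie below MMP9, MMP13 and MMP7 in UBE3D KD libraries, at 2.41 and 3.50, and above them in control libraries, at 80.5 and 41.3.

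The changes of proteases were also set against those of inhibitors known to bind them, as a difference of log2 fold changes (protease minus inhibitor) with the root of the summed squared SE, without a test because the covariance between genes is unknown. MMP14 differed from TIMP2 by -0.86 (SE 0.21, interval -1.26 to -0.45). Against TIMP3 its difference was 0.33 (SE 0.21), with an interval from -0.08 to 0.74 that spans 0. The differences from TIMP1 were -4.55 (SE 0.47) for MMP3, -3.05 (SE 0.71) for MMP1 and 0.57 (SE 0.32, interval -0.06 to 1.19) for MMP9. MMP3 and MMP1 changed by far more than TIMP1, while the intervals of the MMP9 and the MMP14 to TIMP3 differences include 0.

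Most of the rest of the family did not pass the threshold. Of the 17 rows of other MMPs and TIMP4 in the authors' deposited table, 1 fell, 1 rose and 15 did not pass, and their median log2 fold change was -0.09. The lowered share was 5.88%, near the shares over all rows, of which 7.93% were lowered and 4.62% raised. Of the 15, 13 had a mean under 50, with intervals as wide as -1.52 to 0.70 (MMP12), so sizeable changes in them are not excluded. MMP16, a membrane-type MMP like MMP14, fell by 1.77 on the log2 scale (SE 0.44, DESeq2 adjusted p = 1.44e-05) at a mean of 39.0 in the authors' deposited table. MMP24, another membrane-type MMP, had 0.34 (SE 0.18, DESeq2 adjusted p = 0.0493) at a mean of 174, a rise whose interval, -0.01 to 0.68, spans 0 and which the Wald test lost (adjusted p = 0.465). MMP24 overlaps a gene on the opposite strand, and without a stated strand setting for the counting its value is uncertain to that extent. MMP15, also membrane-type, had -0.16 (SE 0.17, DESeq2 adjusted p = 0.398) at a mean of 122 in the authors' deposited table. TIMP4 had -0.43 (SE 0.39, DESeq2 adjusted p = 0.101) at a mean of 30.6 in the authors' deposited table. The other rows, of MMP2, MMP8, MMP10, MMP11, MMP12, MMP17, MMP19, MMP20, MMP21, MMP25, MMP26, MMP27 and MMP28, had log2 fold changes from -0.41 (MMP12) to 0.26 (MMP19) and did not pass in the authors' deposited table.

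**Figure D3:**
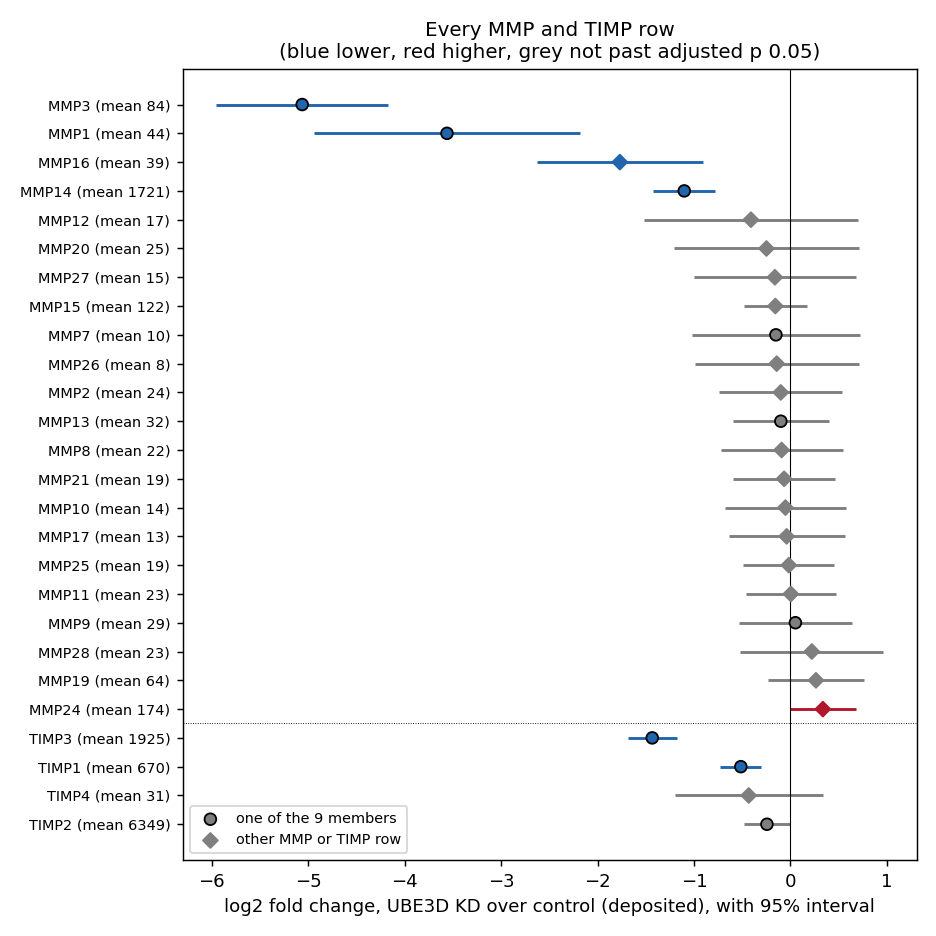
Points give the deposited log2 fold change (UBE3D KD over control) of all 26 MMP and TIMP rows with a 95% interval from the SE, circles for the 9 members and diamonds for the others. By point estimate MMP3, MMP1, MMP16 and MMP14 are the lowest among 22 MMP rows, and TIMP3 is the lowest among 4 TIMP rows. The intervals of MMP16 and MMP14 overlap that of MMP12 (-1.52 to 0.70), and the interval of TIMP3 overlaps that of TIMP4 (-1.20 to 0.33). The interval of TIMP1 overlaps those of TIMP2 and TIMP4.

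A group of 9 MMP rows lies in one cluster on chromosome 11, which in GENCODE 29 spans 435 kb from MMP7 (chr11:102520508-102530753, GRCh38, minus strand) to MMP13 (chr11:102942995-102955734, minus strand). Its rows differed in whether they passed the threshold. MMP1 (chr11:102789920-102798160) and MMP3 (chr11:102835801-102843803), 37.6 kb apart, were lowered and the other 7 MMP rows were not called. These 7 had means from 10.1 to 31.8 and log2 fold changes below 0, and the intervals of MMP7, MMP12, MMP20 and MMP27 include a 2-fold fall. The nearest MMP neighbours of MMP1 and MMP3, MMP10 on the MMP1 side and MMP12 on the MMP3 side, had log2 fold changes of -0.05 (SE 0.32, DESeq2 adjusted p = 0.798) and -0.41 (SE 0.57, DESeq2 adjusted p = 0.11) in the authors' deposited table, at means of 13.5 and 16.9. WTAPP1, a pseudogene on the opposite strand that overlaps both MMP1 and MMP3, had -0.01 (SE 0.31, DESeq2 adjusted p = 0.953) at a mean of 16.1. The 6 flanking coding genes, YAP1, BIRC3, BIRC2, TMEM123, DCUN1D5 and DYNC2H1, had means from 534 to 4584 and log2 fold changes from -0.12 to 0.11, with 0 called, in the authors' deposited table. Of all rows with a mean of 500 or more, 16.6% were lowered, so most genes of that abundance were not lowered either. In a wider list of 12 rows beside the cluster, against 4.62% raised and 7.93% lowered over all rows, the median was -0.04, 0 fell and 1 rose. The row that rose was C11orf70 (0.73, SE 0.39, DESeq2 adjusted p = 0.0134). That rise was lost at an adjusted p under 0.01 and in the Wald test, which left 0.

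**Figure D4:**
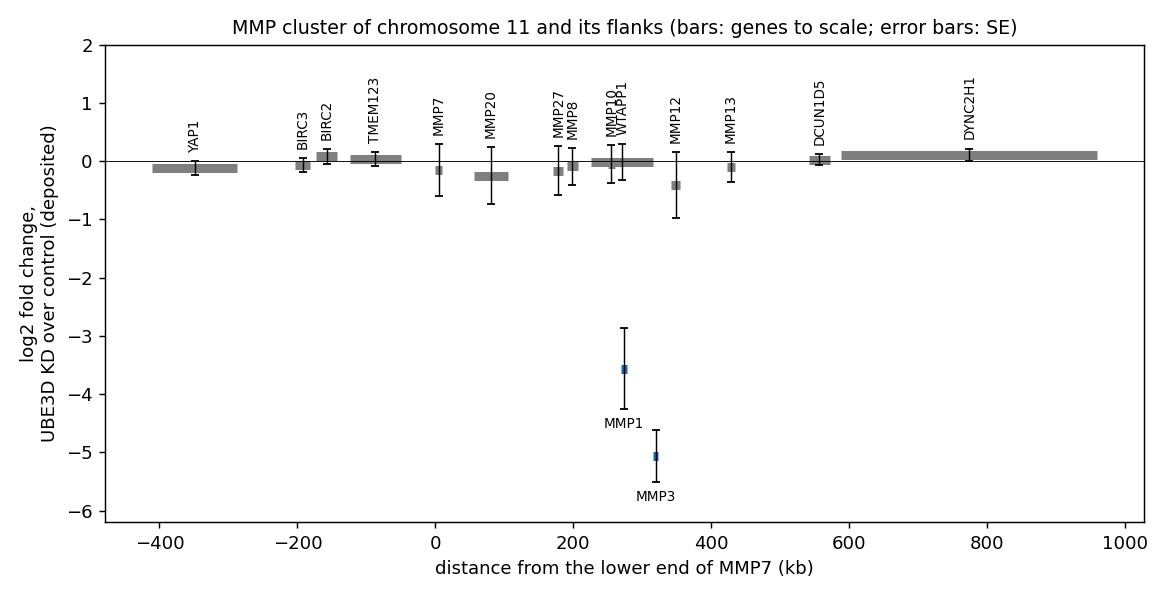
Horizontal bars show genes of the chromosome 11 cluster and its flanks to scale, by distance from the lower end of MMP7 (kb), at the height of their deposited log2 fold change (UBE3D KD over control) with SE bars. MMP1 and MMP3 lie at -3.56 and -5.06, and the flanking coding genes between -0.12 and 0.11.

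Genes that overlap other members were scarce and did not pass the threshold. TIMP1 (chrX:47582313-47586789) lies inside SYN1 on the opposite strand, and SYN1 had a mean of 24.3 and a log2 fold change of -0.03 (SE 0.25, DESeq2 adjusted p = 0.919) in the authors' deposited table. TIMP3 (chr22:32801701-32863043) lies inside SYN3 on the opposite strand, and SYN3 had a mean of 17.6 and -0.29 (SE 0.50, DESeq2 adjusted p = 0.187). TIMP2 (chr17:78852977-78925387) overlaps CEP295NL on the same strand, whose mean was 78.2 and log2 fold change 0.06 (SE 0.19, DESeq2 adjusted p = 0.783). MRPL52, upstream of MMP14 (chr14:22836557-22849027), had -0.10 (SE 0.13, DESeq2 adjusted p = 0.553), and SLC12A5, past the end of MMP9 (chr20:46008908-46016561), had 0.12 (SE 0.27, DESeq2 adjusted p = 0.588). In a broader list of 18 rows around the members, CFP (-2.13), CANT1 (-0.36) and LRP10 (-0.25) fell and USP11 (0.33) rose in the authors' deposited table, against 7.93% and 4.62% of all rows, with a median of 0.01; the Wald test left 0 raised. MMP3 and MMP10 are close paralogs, and how the authors' counting treated reads that match both is not given.

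Promoters are shown for 4 of the 9 members, with sequences of RefSeq (GRCh38.p14) from 250 bases before to 50 bases after the gene start, 5' to 3' on the gene's strand. They set 3 members that fell beside MMP7, which did not pass the threshold and holds the AP-1 word, the site of FOS and JUN proteins through which many MMP promoters respond. Capitals mark TGAGTCA or TGACTCA (AP-1), the variant TGAGTAA or TTACTCA, and AGGAAG or CTTCCT (ETS factors), each pair being 1 word on both strands. The variant was added after the sequences had been seen.
MMP14 (chr14:22836335-22836634, plus strand): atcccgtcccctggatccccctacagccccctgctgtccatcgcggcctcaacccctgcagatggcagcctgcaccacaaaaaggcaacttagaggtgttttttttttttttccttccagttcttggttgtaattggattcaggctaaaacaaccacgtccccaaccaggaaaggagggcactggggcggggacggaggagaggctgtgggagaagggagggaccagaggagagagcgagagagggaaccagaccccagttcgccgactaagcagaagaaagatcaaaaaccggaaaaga
TIMP3 (chr22:32801455-32801754, plus strand): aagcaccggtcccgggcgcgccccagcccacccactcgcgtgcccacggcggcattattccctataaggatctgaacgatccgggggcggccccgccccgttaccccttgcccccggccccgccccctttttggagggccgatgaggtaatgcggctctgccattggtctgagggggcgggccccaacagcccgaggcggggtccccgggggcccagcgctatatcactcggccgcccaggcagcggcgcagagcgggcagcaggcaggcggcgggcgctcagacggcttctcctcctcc
TIMP1 (chrX:47582186-47582485, plus strand): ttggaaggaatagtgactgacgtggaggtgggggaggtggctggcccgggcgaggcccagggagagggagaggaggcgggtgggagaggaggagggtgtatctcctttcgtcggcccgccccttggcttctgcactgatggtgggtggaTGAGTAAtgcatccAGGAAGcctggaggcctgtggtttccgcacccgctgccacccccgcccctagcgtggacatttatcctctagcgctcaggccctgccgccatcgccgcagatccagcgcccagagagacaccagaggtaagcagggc
MMP7 (chr11:102530698-102530997, minus strand): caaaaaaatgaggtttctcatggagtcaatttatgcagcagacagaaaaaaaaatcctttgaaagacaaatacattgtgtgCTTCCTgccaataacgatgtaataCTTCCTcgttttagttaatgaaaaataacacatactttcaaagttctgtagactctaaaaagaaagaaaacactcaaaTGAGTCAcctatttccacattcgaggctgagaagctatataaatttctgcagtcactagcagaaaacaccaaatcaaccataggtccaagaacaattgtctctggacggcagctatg
The AP-1 word occurs in MMP7 alone, 67 bases before the start, and in 4.95% of 35116 promoters of this length. ETS words begin 169 and 145 bases before the start of MMP7 and 87 bases before that of TIMP1, and 33.6% of all promoters hold one. TIMP1 holds the AP-1 variant 101 bases before its start, against 2.57% of all promoters. The MMP14 and TIMP3 windows hold none of these words, none of the 4 windows holds the NF-kB consensus searched by name (11.3% of all promoters), and their GC content ran from 35.7% in MMP7 to 72.7% in TIMP3. MMP1, MMP3, MMP9, MMP13 and TIMP2 are named only.

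Transcription factors known to act at MMP promoters were lowered in part. Of 25 rows, 9 fell and 0 rose in the authors' deposited table (7.93% and 4.62% over all rows), with a median log2 fold change of -0.18, and 5 fell in the Wald test. EGR1, an immediate early factor, fell by 1.54 on the log2 scale (SE 0.30), ETV1 by 0.72 (SE 0.15), ETS1 by 0.46 (SE 0.13) and the osteogenic factor RUNX2 by 0.38 (SE 0.12), per the authors' deposited table. Among the FOS and JUN subunits of AP-1, FOSL1 (-0.41, SE 0.14, DESeq2 adjusted p = 0.00329) and JUND (-0.51, SE 0.22, DESeq2 adjusted p = 0.0109) fell, per the authors' deposited table. JUN (0.05), JUNB (-0.03), FOS (-0.04), FOSB (-0.30) and FOSL2 (-0.18) did not pass. Other partners of AP-1 are not covered here. The members and these factors were measured in the same libraries, and a link between them was not tested.

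Proteases that activate latent MMPs had 3 of 16 rows lowered and 0 raised in the authors' deposited table, with a median of -0.15. The lowered share was 18.8%, against 7.93% of all rows. All 3 had a mean of 500 or more. Of the 8 activator rows with a mean of at least 100, 3 fell, against 1206 of all 9743 such rows. The urokinase gene PLAU (-1.85, SE 0.15), the tissue plasminogen activator gene PLAT (-1.18, SE 0.13) and the cathepsin gene CTSB (-0.41, SE 0.14) fell in the authors' deposited table. FURIN, the proprotein convertase that cuts the prodomain of MMP14, had -0.20 (SE 0.12, DESeq2 adjusted p = 0.146), and the urokinase receptor gene PLAUR had 0.11 (SE 0.13, DESeq2 adjusted p = 0.503). Inhibitors other than TIMPs had 4 of 11 rows lowered and 0 raised, with a median of -0.31, and 2 lowered in the Wald test. That is a lowered share of 36.4%, against 7.93% of all rows, of which 4.62% were raised. SERPINE2, an inhibitor of urokinase and thrombin, fell by 2.28 on the log2 scale (SE 0.22), CST3, which encodes cystatin C, by 0.41 (SE 0.13), RECK, a membrane-anchored inhibitor of MMPs, by 0.38 (SE 0.16) and the testican gene SPOCK3, at a mean of 19.0, by 0.54 (SE 0.81) in the authors' deposited table.

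Surface partners and clearance receptors of MMPs had 10 of 16 rows lowered and 1 raised in the authors' deposited table, with a median of -0.36, and 4 lowered and 0 raised in the Wald test. The lowered share was 62.5%, against 7.93% of all rows and 16.6% of those with a mean of 500 or more; 14 of the 16 rows had a mean of at least 100. CAV1 (-1.68, SE 0.15), the integrin gene ITGB1 (-1.28, SE 0.21) and the syndecan gene SDC1 (-0.58, SE 0.14) fell, and LCN2, whose product binds MMP9, rose (1.52, SE 0.75, DESeq2 adjusted p = 0.00158) in the authors' deposited table. Of 29 ADAM and ADAMTS rows, the related sheddases and matrix proteases, 5 fell and 1 rose (ADAMTS12, lost in the Wald test), with a median of -0.14. The lowered share was 17.2%, against 7.93% of all rows. Of the 13 ADAM and ADAMTS rows with a mean of at least 100, 4 fell, against 1206 of all 9743 such rows. ADAMTS9 (-1.79, SE 0.12), ADAM8 (-1.48, SE 0.10), ADAM19 (-0.67, SE 0.10) and ADAMTS14 (-1.73, SE 0.43) fell in the authors' deposited table. ADAM17, a sheddase that TIMP3 blocks, had -0.05 (SE 0.10, DESeq2 adjusted p = 0.767).

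Of 28 MMP substrates, 10 fell and 2 rose in the authors' deposited table, with a median of -0.12, and 7 fell and 1 rose in the Wald test. The lowered share was 35.7%, against 7.93% of all rows. The tenascin gene TNC (-2.96, SE 0.12), the laminin gene LAMA3 (-0.91, SE 0.08) and THBS1 (-1.29, SE 0.13) fell, and IGFBP3 (0.92, SE 0.14) rose. The fibrillar collagen genes COL1A1 (0.17), COL1A2 (0.01) and COL3A1 (0.27) and the fibronectin gene FN1 (-0.08) did not pass. Fibroblasts are a common source of MMPs and TIMPs in tissue, and among 4 markers of theirs the proteoglycan gene LUM (1.42, SE 0.31) and PDGFRB (0.96, SE 0.34) rose, COL1A1 and DCN (-0.07) did not pass, and 0 fell. Their summed implied level was 84.3 normalized counts per kb in UBE3D KD libraries and 49.4 in control libraries. All libraries came from the MDA-MB-231 line, and a part of other cells in the members' values was not tested. In bulk RNA fewer cells of a kind and less RNA per cell cannot be told apart. In a wider list of 19 marker rows, 3 fell (VIM, CD44 and EPCAM) and 2 rose, against 7.93% and 4.62% of all rows, and the Wald test left 1 lowered and 1 raised.

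**Figure D5:**
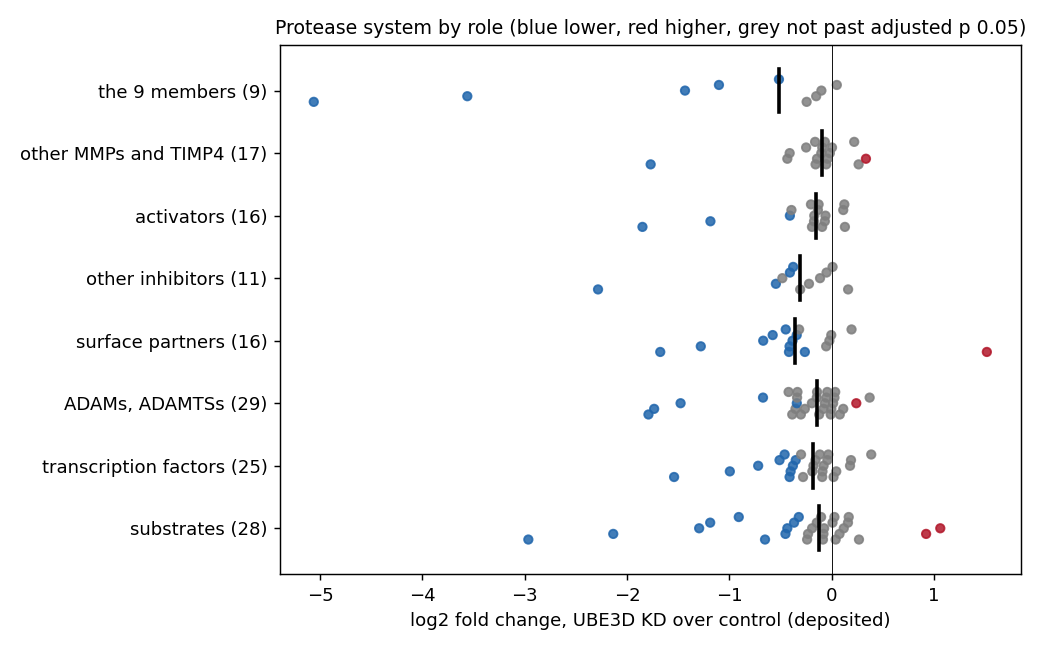
Each point is the deposited log2 fold change (UBE3D KD over control) of 1 gene, with genes grouped by role in the protease system, the number of rows in brackets and the median as a black line. The medians lie below 0 in all 8 groups shown, from -0.51 for the 9 members to -0.09 for the other MMPs and TIMP4, and the median over all rows was -0.03. Lists not grouped by role are left out: genes beside the chromosome 11 cluster (median -0.04), genes that overlap or adjoin members (0.01) and cell type markers (-0.07).

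Readthrough regions were not listed for the members. Of the family only MMP24 and its antisense partner MMP24-AS1 had one, with log2 fold changes of -0.26 (SE 0.14, DESeq2 adjusted p = 0.072) and 0.03 (SE 0.14, DESeq2 adjusted p = 0.88) in the authors' deposited table. Of 17 regions of genes in the lists, 2 fell, those of FOSL2 (-0.51, SE 0.13, DESeq2 adjusted p = 0.000116) and FOSL1 (-0.45, SE 0.19, DESeq2 adjusted p = 0.00903), and 2 rose, those of CYR61 (0.57, SE 0.26, DESeq2 adjusted p = 0.00875) and LRP10 (0.33, SE 0.12, DESeq2 adjusted p = 0.00652). Over all regions of the authors' deposited table, 16.1% were lowered and 12.7% raised. The longest 3' untranslated regions of the 26 MMP and TIMP genes in GENCODE 29 were also searched for GATTGAA and CTTATCT, words earlier found in the same data to go with falls and with rises. Neither word occurs in any of them, MMP1, MMP3, MMP14, TIMP1 and TIMP3 included, against 9.51% and 10.9% of 16179 genes. The median length was 607 bases in the 26 genes and 1253 in all.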

How the data were processed

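Total RNA of 3 UBE3D KD and 3 control libraries was depleted of ribosomal RNA and sequenced as stranded pairs, per the labels' protocols. STAR 2.5.2b, cutadapt 1.8.1, the build hg38 and DESeq2 come from the submitters' processing notes; for annotation, counting tool and strand setting nothing is given in the sources used here. Per the file headers, the authors' deposited tables hold for each gene or readthrough region a mean normalized count (a signal), a log2 fold change with its SE, and p-values before and after adjustment. No count per library was used, so no model was fitted. Members and lists were chosen with earlier results of these data known. Named were all members, other MMP and TIMP rows, genes beside members, and up to 4 called rows per list; others were named after their values were seen, and 1 list gene is not reported here. Intervals are the log2 fold change with the normal 95% range of the SE. Positions and exon lengths came from GENCODE 29 on GRCh38 by symbol, and the authors' annotation may differ. Calls were counted again with other thresholds, a minimum mean of 100, a Wald test on deposited values and a shift to a median of 0, after a check on simulated data. Python 3.11.15, numpy 2.4.6, pandas 2.3.3, scipy 1.17.1 and matplotlib 3.10.9 were used.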

Additional observations from a re-analysis of the deposited data

How the results depend on the processing

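No paired analysis was possible because the files hold no value per library. Of the members, 5 lowered and 0 raised held at an adjusted p under 0.01 and in the Wald test. The same held with the small shift to a median of 0 given below. TIMP1 missed a 2-fold change, which left 4 lowered. TIMP2 was called at an adjusted p under 0.10 and among rows with a mean of at least 100. MMP1 and MMP3 are left out of those rows. Of 188 list genes, 47 fell and 9 rose, against 7.93% lowered and 4.62% raised over all rows. Shares over all rows are not given for the other settings. With a 2-fold change required 15 fell and 3 rose, in the Wald test 29 fell and 2 rose, and 5 rose at an adjusted p under 0.01. The shift to a median of 0, by 0.00051 on the log2 scale, was made before the same Wald test. It also gave 29 and 2, and a shift so small is hardly a separate check. Of list readthrough regions, 2 fell and 2 rose, against 16.1% lowered and 12.7% raised over all regions. With a 2-fold change 0 fell and 0 rose, in the Wald test 1 and 1, with the shift 1 and 1. At a mean of at least 100, 1 rose. The MMP1 to TIMP1 difference was -4.21 when rescaled to the normal quantile of the p-value, against -3.05. Among single lists, 48 of the counts moved by over 1.5 times; with a 2-fold change the lowered substrates numbered 4 in place of 10, the lowered ADAM and ADAMTS rows 3 in place of 5, surface partners 2 in place of 10, other inhibitors 1 in place of 4 and transcription factors 1 in place of 9. At an adjusted p under 0.01 the lowered other inhibitors numbered 2 in place of 4. The cause was not tested. Depth per library is unknown, so its limit on MMP7, MMP9 and MMP13, at means of 10.1 to 31.8, cannot be given.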
